A study of Rattus norvegicus with 3 samples.

Results

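The 8 genes described here, Hmgcs1, Idi1, Fdps, Fdft1, Sqle, Cyp51, Msmo1 and Insig1, belong to cholesterol synthesis and its feedback control, and are 8 of the 25199 features counted. They were chosen by name for their place in the pathway, and all 8 were found in each library. Their levels are given in oligodendrocyte-like, oligodendrocyte precursor-like, Schwann-like, macrophage-like, microglia-like and fibroblast-like cells of injured rat spinal cord. The tissue came from wild type rats aged 6 to 8 weeks, with material injected where the cord had been injured. The groups were phosphate-buffered saline (PBS) and a pair of hydrogels labelled G-HD and MPG-HD, and every group carried the injury, so no uninjured cord stands beside them. Each group is 1 droplet-based single-cell library from 5 animals, with no label tying cells to animals.

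Cholesterol is built from acetyl units through mevalonate, isoprenoid diphosphates, squalene and a series of sterols. The genes are switched on together by the SREBP transcription factors, which leave the endoplasmic reticulum with their escort Scap when sterol is low and are held there by the Insig proteins when sterol is high. Myelin is rich in cholesterol, little crosses from blood into the central nervous system, and myelinating glia therefore make much of their own, whereas phagocytes that clear myelin take cholesterol up and export or store it.

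Promoter sequences are shown for 3 members that act at different points of the pathway: Hmgcs1, in its early mevalonate steps, Fdps, in the isoprenoid steps, and Insig1, its feedback inhibitor. They run 250 bases before to 50 bases after the RefSeq start in build GRCr8, on the gene's own strand, chr2:53382054-53382353 (+) for Hmgcs1, chr2:176804767-176805066 (-) for Fdps and chr4:8057720-8058019 (-) for Insig1. Capitals mark CCAAT read on either strand (CCAAT or ATTGG), the E-box CACGTG, and TCACACGAG, a variant of the sterol element.
Hmgcs1 promoter: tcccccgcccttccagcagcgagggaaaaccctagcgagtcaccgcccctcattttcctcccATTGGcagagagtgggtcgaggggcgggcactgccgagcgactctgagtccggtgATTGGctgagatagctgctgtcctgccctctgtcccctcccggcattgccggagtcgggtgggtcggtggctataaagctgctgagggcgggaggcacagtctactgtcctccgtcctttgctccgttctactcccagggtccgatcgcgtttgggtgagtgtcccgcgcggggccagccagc
Fdps promoter: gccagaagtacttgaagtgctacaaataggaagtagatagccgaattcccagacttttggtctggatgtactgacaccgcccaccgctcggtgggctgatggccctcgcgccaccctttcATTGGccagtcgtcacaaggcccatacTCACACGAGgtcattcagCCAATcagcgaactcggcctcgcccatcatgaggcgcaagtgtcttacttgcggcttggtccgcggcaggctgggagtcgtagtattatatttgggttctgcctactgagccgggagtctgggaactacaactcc
Insig1 promoter: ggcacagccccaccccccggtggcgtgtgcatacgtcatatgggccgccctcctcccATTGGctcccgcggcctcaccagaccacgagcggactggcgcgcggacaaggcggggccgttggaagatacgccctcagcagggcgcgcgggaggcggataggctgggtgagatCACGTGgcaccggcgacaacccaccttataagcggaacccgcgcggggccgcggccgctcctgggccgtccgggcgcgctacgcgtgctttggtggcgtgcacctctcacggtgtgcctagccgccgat

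CCAAT, the letters bound by the SREBP partner NF-Y, was found on either strand in the promoters of Hmgcs1, Idi1, Fdps, Msmo1 and Insig1, which is 5 of the 6 members in the table, and not in that of Cyp51. It was found in 37.5% of all 33469 promoters of the same length. At least 2 copies were found in 4 of the 6 (Hmgcs1, Idi1, Fdps and Msmo1), against 11.2% of all promoters. In the printed sequences the Hmgcs1 copies lie 188 and 133 bases before the start, and the Fdps copies lie 130 and 85 bases before it with TCACACGAG between them at 103. TCACACGAG was found in 1 of the 6 members and in 0.123% of all promoters, and was searched after the promoters had been read. The sterol element letters TCACNCCAC were found in 0 of the 6 and in 1.12% of all promoters, GGGCGG in 5 of the 6 and in 33.1%, and CACGTG in 1, Insig1, 79 bases before the start, and in 6.42%. Among 10 other cholesterol synthesis enzymes in the table, 8 held CCAAT. The letters do not overlap one another, and a match describes letters only. Sqle and Fdft1 have no entry.

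After filtering, 1374, 2342 and 2087 cells were kept from the PBS, G-HD and MPG-HD libraries, with 15835089 to 25741215 unique molecular identifiers (UMIs) per library and a median of 9247.5 to 10425 per cell. Pairs of libraries shared 5 to 8 cell barcodes. No cell annotation was used, so classes were rebuilt by clustering and named from marker genes. They held, in the same library order, 226, 171 and 399 oligodendrocyte-like, 41, 62 and 83 precursor-like, 96, 202 and 210 Schwann-like, 332, 698 and 442 macrophage-like, 275, 300 and 394 microglia-like, and 137, 237 and 168 fibroblast-like cells. S100a8 and S100a9, of a list of 6 neutrophil granule genes, had their highest level in G-HD within all 6 classes. Beside them stood 60 neutrophil-like cells in G-HD against 5 in PBS and 2 in MPG-HD. In precursor-like cells S100a8 had 19 UMIs in G-HD against 1 in PBS, and S100a9 14 against 2. Mmp8, of the same list, went another way in macrophage-like cells, at 94.8, 87.6 and 148 CPM in PBS, G-HD and MPG-HD. In G-HD oligodendrocyte-like cells 1 cell held 317 of 363 S100a8 UMIs and 121 of 156 S100a9 UMIs. Without the cell with the most granule UMIs in each class and library, a value added after seeing the data, S100a8 stood at 21.2 to 34.9 CPM over the classes in G-HD, 0.537 to 7.14 CPM in PBS and 0 to 4.23 CPM in MPG-HD. The part of these cells and transcripts in the results below was not tested. With 1 library per group there is no test of any difference. A level is the UMIs of a gene summed over all cells of a class, divided by all UMIs of that class and given on the CPM scale. The 95% intervals in parentheses are exact and cover counting error only, not animals or libraries. For levels and ratios they also leave out the uneven spread of UMIs over cells.

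The precursor name carries a limit. This cluster was led by Pnlip, Caly, Slc1a1, Bcas1, Nfasc and Enpp6, with none of the fixed precursor markers among its 10 leading genes. Of 7 precursor markers, 3 or 4 were found in at least 20% of its cells in each library, with a summed level of 515 to 1016 CPM, and Neu4 was at 0 in all 3 libraries. Of 8 oligodendrocyte markers, 5 to 7 were found in that share of its cells, at 20635 to 49329.8 CPM. Other names carry limits too. The macrophage-like cluster led by Ms4a4e and Cd8a had 0 macrophage markers among its 10 leading genes. Its mean macrophage marker log2 ratio to all other cells was -0.08. The microglia-like cluster led by Mx1 and the fibroblast-like one led by Smoc2 also had 0 of their own. Macrophage markers summed to 3233 to 3892 CPM in microglia-like and 8297 to 11503 CPM in macrophage-like cells. Microglia markers summed to 1072 to 1205 CPM in the former.

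Hmgcs1 makes HMG-CoA in the early mevalonate steps. In oligodendrocyte-like cells it stood at 125 CPM (112 to 139.8) in PBS, 110.3 (96.3 to 126) in G-HD and 49.5 (43.6 to 56.0) in MPG-HD, so the MPG-HD library lay below the other 2 beyond counting error. Fibroblast-like cells had 20.2, 15.9 and 8.66 CPM and Schwann-like cells 112, 89.1 and 81.9 CPM, in the order PBS, G-HD and MPG-HD. Macrophage-like cells had 3.93 to 5.63 CPM and microglia-like cells 4.86 to 7.83 CPM, which is 3.86% to 11.2% of the oligodendrocyte-like level of the same library. Precursor-like cells had 147, 95.5 and 28.5 CPM. In PBS and G-HD the oligodendrocyte-like and precursor-like levels lay within counting error of each other. In MPG-HD the Schwann-like level was the highest and lay beyond counting error above the oligodendrocyte-like one. Of its 84 UMIs, 22 came from 1 cell.

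Idi1 interconverts the isoprenoid building blocks. Its oligodendrocyte-like level was 101 CPM (89.5 to 114) in PBS, 168 (151 to 187) in G-HD and 98.3 (89.9 to 107) in MPG-HD, and here the G-HD library stood apart. Schwann-like cells had 171, 187 and 169.6 CPM, with overlapping intervals in all 3 libraries. Precursor-like cells had 179.7, 72.6 and 51.3 CPM, with PBS highest, and fibroblast-like cells 38.3, 36.9 and 26.9 CPM. Phagocytes had 13.7 to 21.7 CPM, or 8.14% to 21.4% of the oligodendrocyte-like level.

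Fdps joins the isoprenoid units into farnesyl diphosphate, which feeds sterols and also protein prenylation. Its levels were 229, 227 and 185 CPM in oligodendrocyte-like cells, 268, 276 and 230.0 CPM in Schwann-like cells and 90.4, 96.3 and 95.3 CPM in fibroblast-like cells. Precursor-like cells had 275, 218 and 172 CPM. Macrophage-like and microglia-like levels lay within counting error of each other in all 3 libraries. Macrophage-like and microglia-like cells held 54.1 to 71.5 CPM, 24.4% to 31.2% of the oligodendrocyte-like level. For Hmgcs1 that share was 3.86% to 11.2%.

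Fdft1, squalene synthase, and Sqle, which oxidizes squalene, take the pathway into sterols. Fdft1 stood at 50.9, 52.2 and 49.1 CPM in oligodendrocyte-like cells, with overlapping intervals, and at 23.6 to 38.2 CPM in precursor-like and Schwann-like cells. Macrophage-like cells had 8.63, 11.6 and 10.1 CPM of Fdft1 and microglia-like cells 3.61, 4.57 and 6.15 CPM. Sqle stood at 157, 218 and 148 CPM in oligodendrocyte-like cells, with G-HD highest. It was at 154, 128 and 74.0 CPM in precursor-like, 76.0 to 102 CPM in Schwann-like and 20.7, 30.8 and 26.0 CPM in fibroblast-like cells. In phagocytes Sqle separated the classes: macrophage-like cells had 24.0, 27.3 and 18.1 CPM and microglia-like cells 8.73, 8.57 and 9.72 CPM, and the intervals of the classes did not overlap in any library.

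Cyp51 and Msmo1 remove methyl groups from the early sterols. Cyp51 was at 249, 238 and 176 CPM in oligodendrocyte-like cells, at 146, 152 and 117 CPM in Schwann-like cells and at 249, 129.8 and 118 CPM in precursor-like cells. Fibroblast-like cells had 22.5 to 31.8 CPM. Msmo1 was at 152, 179 and 125 CPM in oligodendrocyte-like and at 181, 172 and 171 CPM in Schwann-like cells. Precursor-like cells had 84.4, 122 and 82.6 CPM of Msmo1 and fibroblast-like cells 32.4, 34.4 and 37.7 CPM. Phagocytes had 4.48% to 7.56% of the oligodendrocyte-like Cyp51 level and 7.03% to 11.4% of that of Msmo1.

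Insig1 is the endoplasmic reticulum protein that retains the SREBP escort. Oligodendrocyte-like cells had 69.2 CPM (59.5 to 80.1) in PBS, 97.4 (84.3 to 112) in G-HD and 66.6 (59.7 to 74.0) in MPG-HD. Macrophage-like cells had 30.8, 28.9 and 22.6 CPM, which is 44.5%, 29.7% and 33.9% of the oligodendrocyte-like level. Microglia-like cells had 15.7, 13.4 and 9.32 CPM. Schwann-like cells had 39.4, 56.8 and 30.2 CPM, and in PBS and MPG-HD that level lay within counting error of the macrophage-like one. Precursor-like cells had 49.8, 40.1 and 51.3 CPM with overlapping intervals, and fibroblast-like cells 29.2 CPM in PBS against 13.4 CPM in MPG-HD, from 55 and 31 UMIs.

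**Figure D1:**
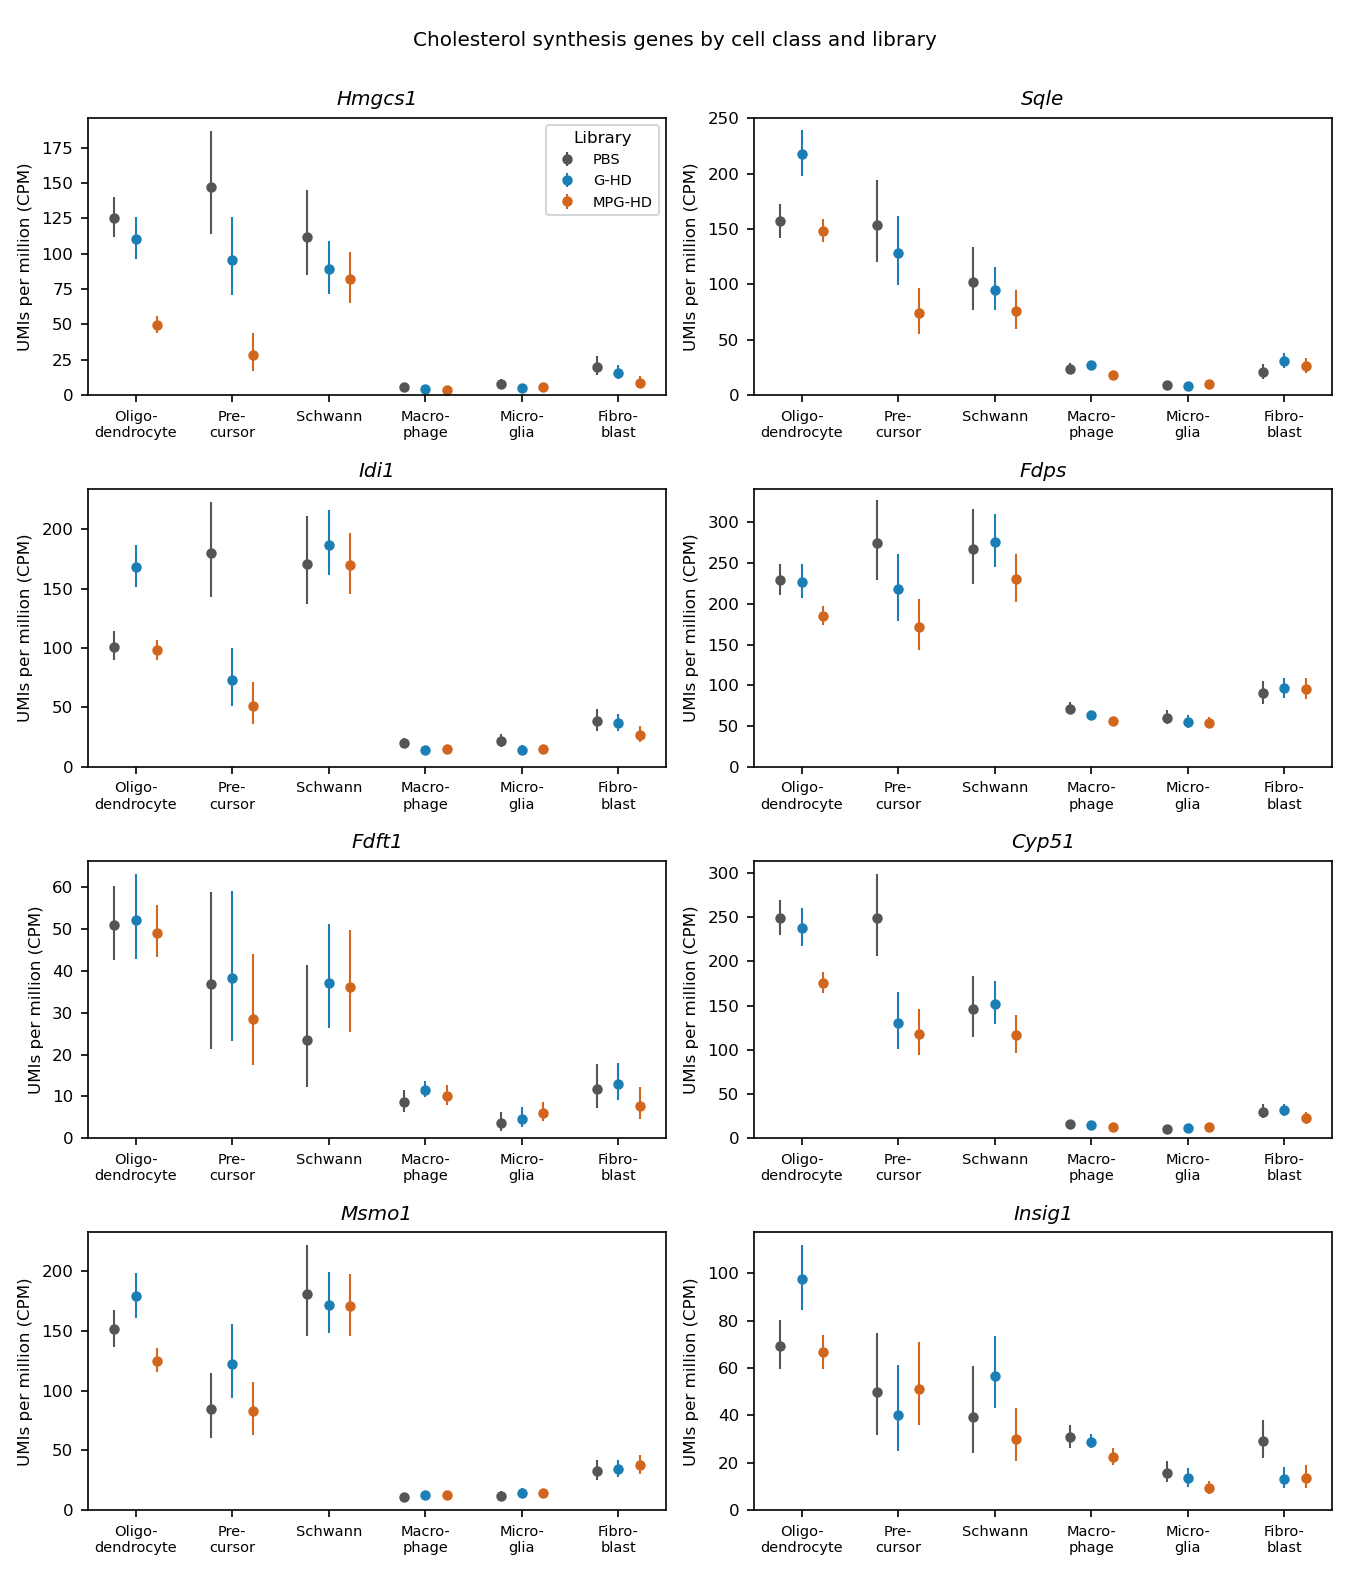
Levels of the 8 genes in CPM (vertical axis, 1 panel per gene with its own linear scale) in 6 cell classes and 3 libraries; points are levels and bars exact 95% Poisson intervals. Within each library the points of oligodendrocyte-like, precursor-like and Schwann-like cells lie above those of both phagocyte classes in every panel, and Hmgcs1 in oligodendrocyte-like cells is at 125 CPM in PBS and 49.5 CPM in MPG-HD.

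Summed over the 8 genes, the level was 1134, 1290.2 and 898 CPM in oligodendrocyte-like cells, 1176, 844 and 607 CPM in precursor-like cells and 1044, 1065 and 911 CPM in Schwann-like cells. Fibroblast-like cells held 238 to 273 CPM, macrophage-like cells 150.2 to 187 CPM and microglia-like cells 126 to 141 CPM. The phagocytes thus had 9.78% to 16.7% of the oligodendrocyte-like level. For 7 central myelin genes, which oligodendrocytes make, the same share was 0.256% to 0.604%. The member share was the larger in both phagocyte classes of all 3 libraries.

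The number of the 8 genes found in a cell moved with its depth. At full depth the median oligodendrocyte-like cell showed 4 of the 8 in all 3 libraries, with a median of 6 to 8 member UMIs, and the median macrophage-like cell, in a class of higher median depth, showed 2. At least 4 of the 8 were then found in 56.2%, 59.1% and 63.2% of oligodendrocyte-like cells, 11.9% to 22.3% of Schwann-like cells, 10.6% to 16.5% of macrophage-like cells and 1.45% to 3.55% of microglia-like cells. After every cell was thinned to 2000 UMIs, the median oligodendrocyte-like, precursor-like and Schwann-like cell showed 1 of the 8 genes, and the median phagocyte and fibroblast-like cell showed 0. At that depth at least 4 of the 8 were found in 11.6% (7.21 to 17.3), 11.7% (6.82 to 18.3) and 8.61% (5.84 to 12.1) of oligodendrocyte-like cells. The share was 4.44%, 9.04% and 4.50% in Schwann-like cells, with overlapping intervals, and 0.599% to 0.847% in fibroblast-like cells. At that depth no macrophage-like or microglia-like cell showed 4 of 8, with upper limits of 0.541% to 1.35%, which hold for cells cut to 2000 UMIs only. At full depth 40, 115 and 47 macrophage-like and 4, 6 and 14 microglia-like cells did.

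Single genes were also found in a larger share of oligodendrocyte-like than of macrophage-like cells. Hmgcs1 was found in 13.3%, 14.6% and 8.01% of thinned oligodendrocyte-like cells, against 0.588% to 1.85% of macrophage-like cells. Without thinning the shares were 36.7%, 39.2% and 29.8% against 6.11% to 8.13%, in classes with median depths of 10792 to 12071 and 15304 to 16542 UMIs. Fdps was found in 24.8% to 28.9% of thinned oligodendrocyte-like cells and in 8.78% to 13.3% of macrophage-like cells. No class here is known to lack these genes, so no share serves as a pure background.

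A few cells carried much of the signal. The single cell with the most member UMIs held 7.18%, 7.16% and 3.62% of them in oligodendrocyte-like cells, 29.2%, 11.5% and 14.8% in Schwann-like cells and 18.5% in PBS and 18.2% in MPG-HD fibroblast-like cells, and 135 of 752 UMIs in those of G-HD. In phagocytes it held 1.12% to 3.21%. In PBS precursor-like cells 1 cell held 234 of 543 member UMIs, 43.1%, with 4.36% of the UMIs of the class. That cell held 51 of the 68 Hmgcs1 UMIs of its class and 58 of the 115 Cyp51 UMIs.

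**Figure D2:**
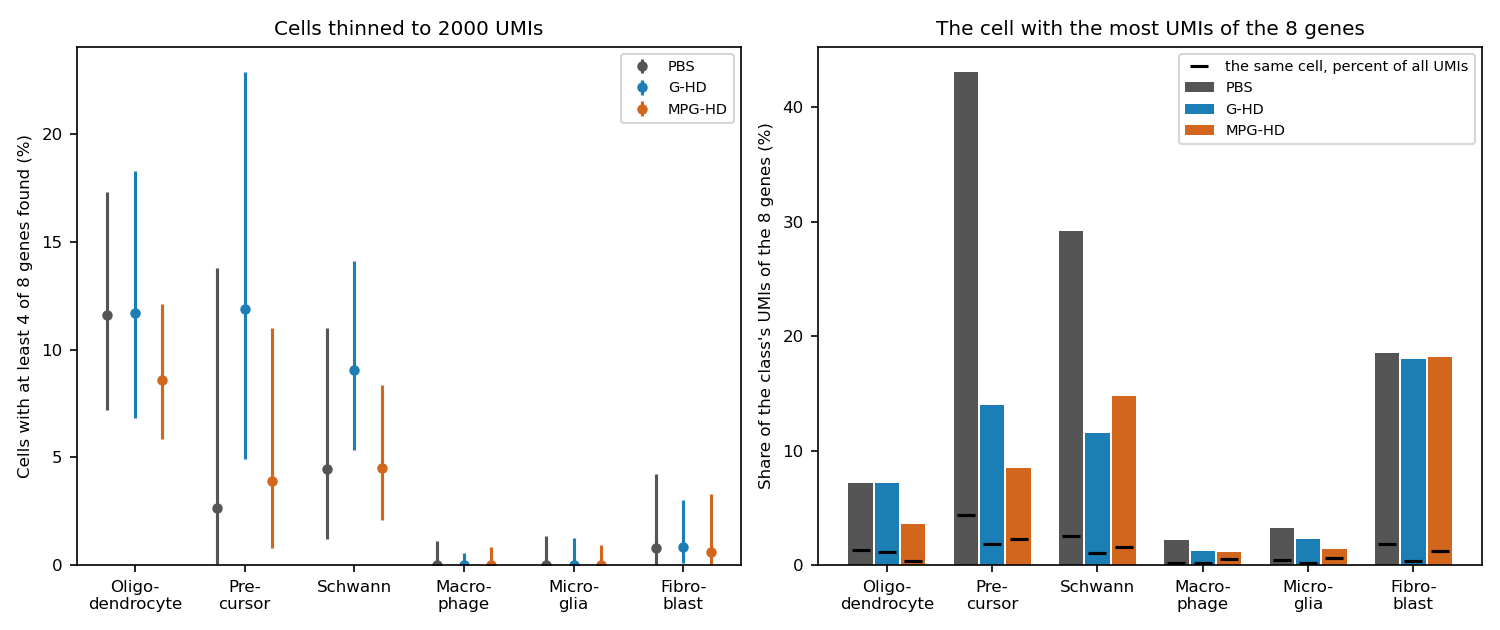
Left, percent of cells with at least 4 of the 8 genes after thinning to 2000 UMIs per cell, by class and library, with exact 95% binomial bars; right, the share of a class's member UMIs held by its single highest cell (bars) and that cell's share of all UMIs of the class (black dashes), both in percent. Phagocytes lie at 0 on the left, and the highest bar on the right is the PBS precursor-like cell at 43.1%.

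The 10% of cells with the highest summed share of the 8 genes, among cells with at least 2000 UMIs, were then read for genes that had not chosen them. The 13 other cholesterol synthesis enzymes were 2.57, 2.92 and 1.74 times the level of the remaining cells in oligodendrocyte-like cells of PBS, G-HD and MPG-HD, and 6.58, 3.57 and 2.99 times in Schwann-like cells. The PBS Schwann-like group was drawn from only 90 cells, 1 of which held 155 of the 530 member UMIs of the class. The ratio without that cell is not given here. Sc5d, a late sterol enzyme, stood at 273 against 90.4 CPM in PBS oligodendrocyte-like cells, at 375 against 115 CPM in G-HD and at 199.9 against 89.5 CPM in MPG-HD, ratios of 3.02 (2.32 to 3.92), 3.25 (2.46 to 4.26) and 2.23 (1.79 to 2.77). Mvd, which makes isopentenyl diphosphate, was at 5.06, 3.68 and 2.75 times in the same cells. Lss, which closes squalene epoxide into the first sterol, was at 2.07 and 4.15 times in PBS and G-HD and at 0.892 (0.372 to 1.85) in MPG-HD, an interval that spans 1. A difference between libraries was not tested. In macrophage-like cells the other enzymes were at 1.43, 1.33 and 0.999 times and in microglia-like cells at 1.13, 0.517 and 1.03 times.

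In the Schwann-like cells picked in this way the myelin gene Mbp was 6.54 (5.66 to 7.56), 2.37 (2.10 to 2.67) and 2.91 (2.66 to 3.19) times the level of the remaining cells. Of the 777 Mbp UMIs of PBS Schwann-like cells, 202 lay in 1 cell, and the ratio without that cell is not given here. In oligodendrocyte-like cells the summed central myelin genes were 1.88, 1.43 and 1.45 times as high. In the G-HD oligodendrocyte-like cells of this group 1 cell held 444 of the 455 neutrophil granule UMIs. Without it these genes were at 57.7 CPM, against 50.6 CPM in the remaining cells.

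**Figure D3:**
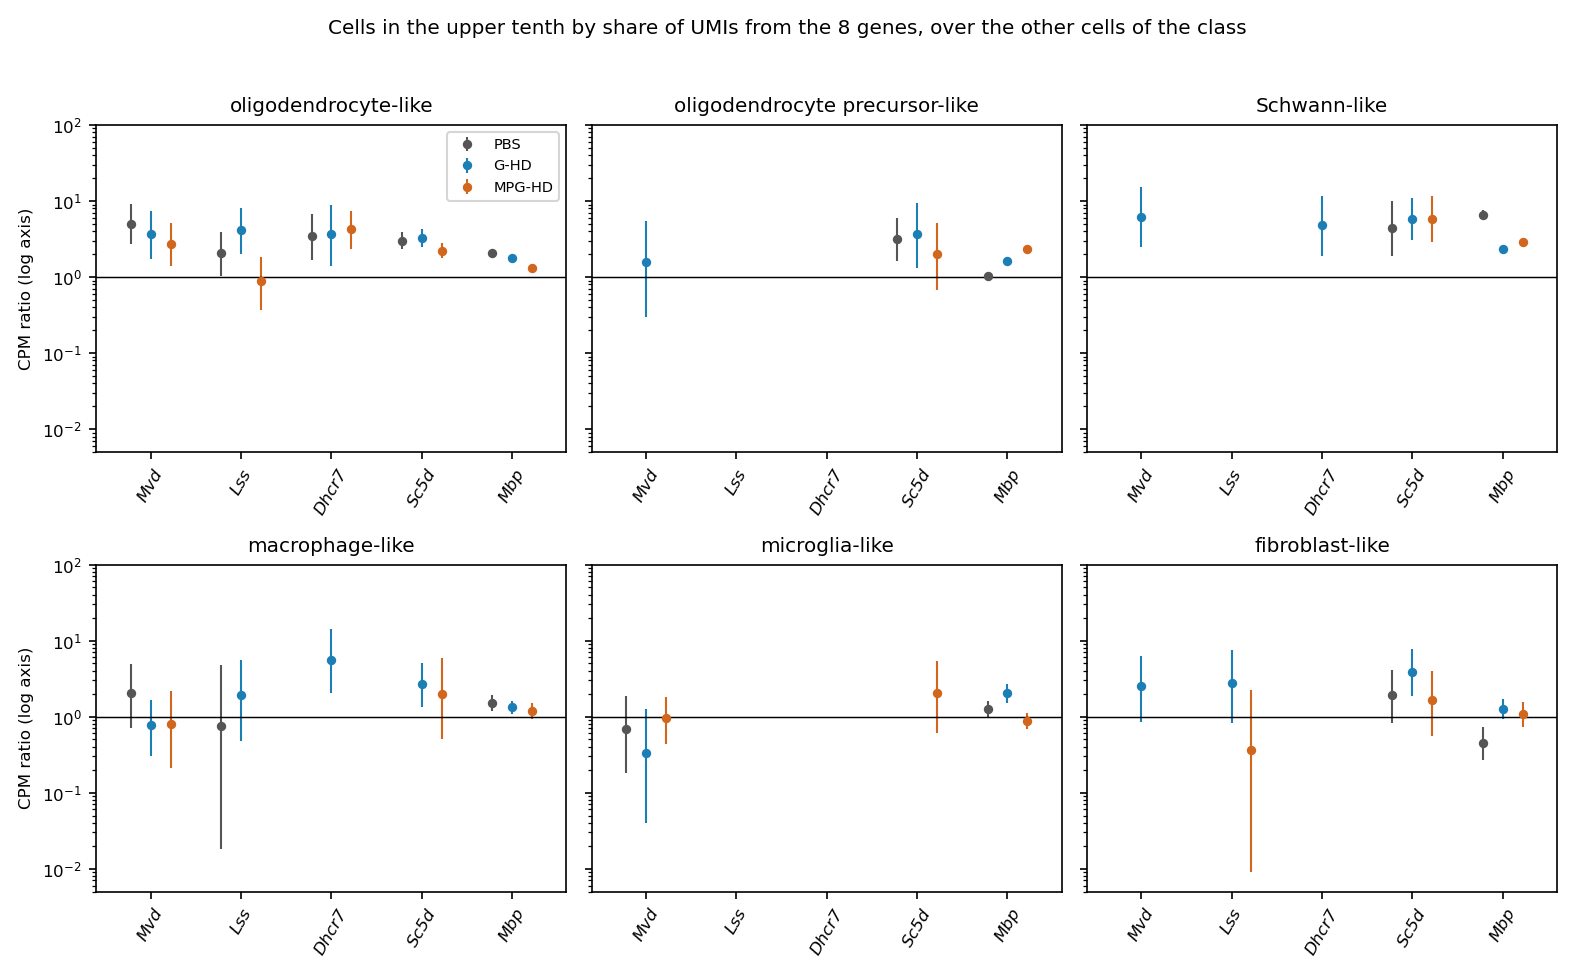
Ratio of the level in the 10% of cells with the highest share of member UMIs to the level in the remaining cells (log axis), for 4 other enzymes and the myelin gene Mbp, 1 panel per class, with points by library and exact 95% bars; genes with under 20 UMIs are left out. In oligodendrocyte-like cells Sc5d is at 3.02 in PBS and 2.23 in MPG-HD.

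MPG-HD was set against PBS to ask how the genes differ after injection of that hydrogel. A gene was counted as higher or lower where both class sums together held at least 50 UMIs and the ratio of levels passed 1.5-fold. Of 44 pairs of a member and a class with that many UMIs, 9 were lower and 0 higher. Among all such pairs of a gene and a class, 5.51% were lower and 3.69% higher. Of the 9, 5 came from precursor-like cells. The count was 5 without the cell with the most member UMIs in each class and library, 3 with 1000 variable genes and 2 after thinning. The smaller thinned sums kept the 50 UMI minimum, so pairs could drop out of that count for want of UMIs.

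Hmgcs1 was lower in oligodendrocyte-like cells, with a ratio of 0.395 (0.334 to 0.467), and it was the 1 member of 8 past the fold there, where 4.64% of all genes were lower and 3.26% higher. Over 14 other processing choices its log2 ratio ran from -1.64 to -0.96 and passed the fold in 14 of 14. Cyp51 was at 0.706 (0.638 to 0.782) and Fdps at 0.807 (0.728 to 0.896). Msmo1 was at 0.827 (0.728 to 0.939), while Sqle, Fdft1 and Insig1 were at 0.944 to 0.966, and Idi1 had 98.3 CPM against 101 CPM. The median log2 ratio of the 8 was -0.18, beside -0.04 for all genes, and that of central myelin genes was -0.05. Of 6 heat shock genes, which rise with cell stress, 0 passed the fold here. Of 6 immediate early genes, which rise with handling or stimulation, 2 were higher. Within the fold, Fos was at 1.41 (1.37 to 1.45), Jun at 1.48 (1.41 to 1.56) and Junb at 1.36 (1.29 to 1.44). The part of the immediate early genes in the Hmgcs1 difference was not tested.

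In fibroblast-like cells Hmgcs1 was at 0.429 (0.236 to 0.756) and Insig1 at 0.459 (0.286 to 0.726), 2 of 7 members measured, where 7.17% of all genes were lower and 3.73% higher. The cells of this class fell into different clusters by library: the cluster led by Smoc2 and Igfbp5 held the most in PBS (58 of 137) and MPG-HD (81 of 168), and the cluster led by Igf2 the most in G-HD (126 of 237). Both genes passed the fold in 14 of 14 other settings, equal weight for each cluster among them. The clusters differed: summed member levels were 355, 247 and 203 CPM in the Smoc2 cluster, 218, 224 and 165 CPM in the Igf2 cluster and 174, 381 and 368 CPM in a cluster led by Sfrp2 and Eln. In that last cluster 1 cell of each hydrogel library held 135 and 100 member UMIs, and without the top cell of each library the levels were 167, 209 and 218 CPM. The heat shock gene Dnajb1 was at 0.629 (0.533 to 0.743) in this class, 1 of 6 of its list lower, and its part was not tested.

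Insig1 was also lower in microglia-like cells, at 0.595 (0.392 to 0.900), from 15.7 to 9.32 CPM, and passed the fold in 11 of 14 other settings. It was 1 of 7 measured, where 4.29% of all genes were lower and 3.04% higher. In the same cells 2 of 6 heat shock genes were lower, Hspa1b at 0.278 (0.229 to 0.336) and Dnajb1 at 0.580 (0.502 to 0.669), and their part in the result was not tested. Within the cluster led by Anxa3 and Gpr84 the Insig1 ratio was 0.559 (0.346 to 0.894), and within the one led by the interferon-induced genes Mx1 and Isg15 it was 0.624 (0.240 to 1.74), an interval that spans 1. In macrophage-like cells 0 of 8 members passed the fold (5.09% of all genes lower and 2.86% higher), with Insig1 at 0.734, Fdps at 0.781 and a median log2 ratio of -0.38 against -0.02 for all genes. Of the heat shock genes, Hspa1b was lower there at 0.390 (0.328 to 0.462) and Hspb1 at 0.550 (0.438 to 0.688). Hspa8, Hsp90aa1 and Hsph1 were at 1.01, 1.28 and 1.49, within the fold. The part of the heat shock genes was not tested. In Schwann-like cells 0 of 7 passed (5.34% lower and 5.01% higher), with Hmgcs1 at 0.730 (0.515 to 1.04).

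In precursor-like cells Hmgcs1, Sqle, Idi1, Fdps and Cyp51 were lower, 5 of 7 measured, where 7.79% of all genes were lower and 6.12% higher. Hmgcs1 was at 0.193 (0.111 to 0.322), from 147 to 28.5 CPM. Without the cell with the most member UMIs in each library, an alternative chosen after seeing the data, 1 remained lower and the median moved from -1.05 to -0.31. Beside this, the central myelin genes had a median log2 ratio of -0.39, and the immediate early genes one of 1.16, with 5 of 6 higher. Of the heat shock genes 1 of 6 was higher, Hspb1 at 4.75 (2.65 to 9.26). Their part in the result was not tested.

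For G-HD against PBS, over 44 pairs, 2 were higher and 5 lower. Among all pairs of a gene and a class, 7.64% were higher and 5.82% lower. Of the 5, 3 came from precursor-like cells, and the count lower was 2 without the cell with the most member UMIs and 0 after thinning.

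Idi1 was higher in G-HD oligodendrocyte-like cells at 1.66 (1.41 to 1.96), the 1 of 8 past the fold, where 5.31% of all genes were higher and 3.34% lower. Sqle was at 1.39 (1.21 to 1.59) and Insig1 at 1.41 (1.14 to 1.73). Msmo1 was at 1.18 (1.02 to 1.37), while Cyp51, Fdps, Fdft1 and Hmgcs1 were at 0.880 to 1.03. Across the other settings the log2 ratio of Idi1 ran from 0.46 to 1.49, above 0 in 14 of 14 and past the fold in 10. The median of the 8 was 0.14, beside 0.03 for all genes. The 47 Idi1 UMIs of 1 cell make up 13.9% of the G-HD sum. In the same cells 2 of 6 heat shock genes were lower, Hspa1b at 0.437 (0.353 to 0.538) and Dnajb1 at 0.571 (0.474 to 0.686). Hspb1 was higher, with 151 of its 162 G-HD UMIs in 1 cell. Of the immediate early genes 1 of 6 was higher, and within the fold Fos, Jun and Junb were at 1.26, 1.37 and 1.28. Their part in the Idi1 difference was not tested.

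This class joined a cluster led by Klk6 and Hapln2, which held the most PBS cells (104 of 226), a cluster led by Masp1, Gpd1 and Opalin, which held the most in G-HD (68 against 67) and MPG-HD (165 against 160), and a shallow cluster with 21 to 53 member UMIs per library. Hmgcs1 differed between the first pair in opposite directions. In the Klk6 cluster it was at 45.7, 85.2 and 29.8 CPM, a G-HD over PBS ratio of 1.87 (1.35 to 2.59). In the Opalin cluster it was at 261, 146 and 70.8 CPM, a ratio of 0.559 (0.450 to 0.691). Without the cell with the most Hmgcs1 UMIs in each library the ratios were 1.62 and 0.569. The MPG-HD over PBS ratio was below 1 in both, at 0.654 (0.466 to 0.918) and 0.272 (0.223 to 0.330). Idi1 over the same pair was at 1.54 and 1.47 in G-HD over PBS, so it did not divide in this way. A difference between clusters was not tested, as each holds 1 library per group.

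In the other classes the G-HD over PBS counts were small. Fdft1 was higher in Schwann-like cells at 1.57 (0.806 to 3.31), on 50 UMIs, 1 of 8 where 7.77% of all genes were higher and 5.07% lower, and its log2 ratio was -0.36 after thinning to 2000 UMIs. Beside it 2 of 6 heat shock genes were lower, Hspa1b at 0.361 (0.295 to 0.442) and Dnajb1 at 0.588 (0.424 to 0.819). Insig1 was lower in fibroblast-like cells at 0.446 (0.284 to 0.691), 1 of 8 where 8.25% were lower and 11.2% higher, and it passed the fold in 14 of 14 settings. The immediate early genes had a median log2 ratio of 0.82 there, with 4 of 6 higher, and 1 of 6 heat shock genes was lower, Dnajb1 at 0.577 (0.491 to 0.678); their part was not tested. Idi1 was lower in microglia-like cells at 0.632 (0.429 to 0.924), 1 of 6 where 4.38% were lower and 5.70% higher, and it passed in 9 of 14 other settings. In PBS 14 of the 72 Idi1 UMIs of this class lay in 1 cell. In the microglia-like cells 3 of 6 heat shock genes were lower, Hspa1b at 0.0465 (0.0273 to 0.0745), Dnajb1 at 0.496 (0.419 to 0.587) and Hspb1 at 0.545 (0.387 to 0.759). Of 300 such cells in G-HD 108 lay in the interferon-led cluster, against 29 of 275 in PBS. Within it Idi1 was at 1.79 (0.616 to 7.11), an interval that spans 1, on 24 and 4 UMIs, and within the Anxa3 cluster at 0.459 (0.275 to 0.740). The part of the heat shock genes was not tested, and neither was the difference between the clusters. In macrophage-like cells 0 of 8 passed (5.47% of all genes higher and 5.61% lower), with Idi1 at 0.736 (0.575 to 0.946).

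In precursor-like cells Hmgcs1, Idi1 and Cyp51 were lower in G-HD, 3 of 6 measured, where 9.87% of all genes were lower and 14.0% higher. The ratios were 0.648, 0.404 and 0.521. Leaving out the cell with the most member UMIs turned the median from -0.48 to 0.14, with 2 higher and 1 lower. The central myelin genes had a median of -1.25 here, with 6 of 7 lower, and the immediate early genes one of 1.17, with 5 of 6 higher. Of 5 heat shock genes measured 1 was higher, Hspb1 at 7.19 (4.03 to 13.9). Their part was not tested.

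**Figure D4:**
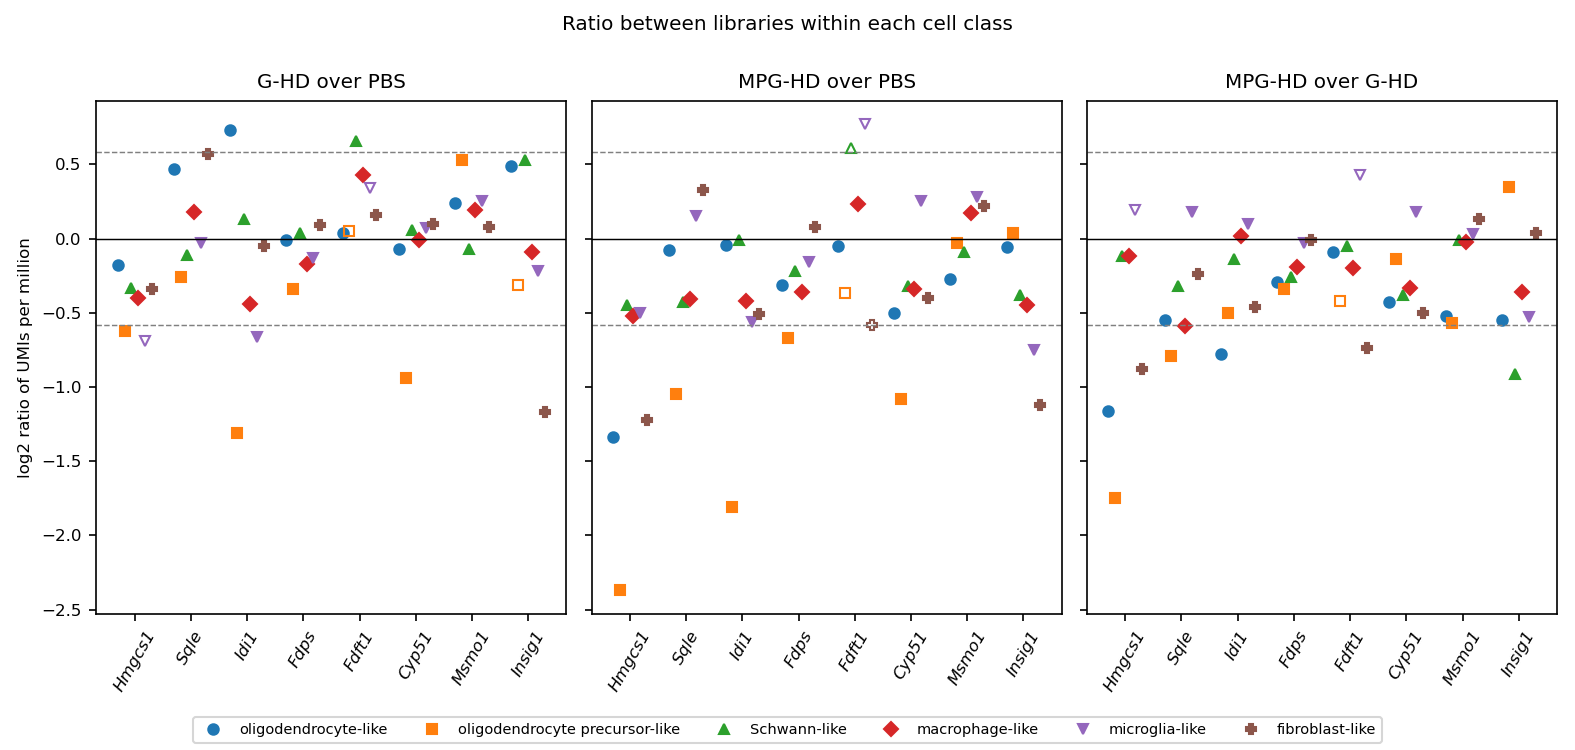
Log2 ratio of levels between libraries (vertical axis) for the 8 genes (horizontal axis), 1 panel per comparison; colour and marker shape give the class, open markers have under 50 UMIs in both sums together, and dashed lines mark 1.5-fold. Hmgcs1 in MPG-HD over PBS is at -1.34 in oligodendrocyte-like and -1.22 in fibroblast-like cells.

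The hydrogels were then set against each other, with libraries that both comparisons above also use. Of 45 pairs, 8 were lower and 0 higher, where 6.68% of all pairs of a gene and a class were lower and 3.16% higher. The count lower was 17 without the top 6% of doublet scores, 14 with every cell at the same weight and 2 at 2-fold.

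In oligodendrocyte-like cells Hmgcs1 was at 0.449 (0.373 to 0.540) and Idi1 at 0.583 (0.507 to 0.671), 2 of 8 lower where 5.47% of all genes were lower and 2.00% higher. Both passed the fold in 14 of 14 other settings. The other 6 members were at 0.682 to 0.942, so all 8 ratios lay below 1, and the median log2 ratio was -0.53 against -0.06 for all genes and -0.12 for central myelin genes. Of the heat shock genes Hspa1b was higher at 1.85 (1.52 to 2.26) and Hspb1 lower at 0.0851 (0.0573 to 0.123), with most of its G-HD UMIs in the 1 cell given above, and their part was not tested.

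In precursor-like cells Hmgcs1 was at 0.298 (0.168 to 0.510) and Sqle at 0.579 (0.395 to 0.844), 2 of 7 where 9.17% were lower and 5.11% higher. Hmgcs1 stayed past the fold in 14 of 14 settings. Hspb1 was at 0.661 (0.496 to 0.881), 1 of 5 heat shock genes lower. In Schwann-like cells Insig1 was at 0.532 (0.332 to 0.837), from 56.8 to 30.2 CPM, 1 of 8 where 5.40% were lower and 2.39% higher, and it passed in 14 of 14. Hspa1b was at 2.38 (1.99 to 2.86) there, 1 of 6 heat shock genes higher. The part of these genes was not tested.

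In fibroblast-like cells Hmgcs1 was at 0.544 (0.304 to 0.943) and Fdft1 at 0.598 (0.320 to 1.08), 2 of 8 where 11.8% of all genes were lower and 5.11% higher. The immediate early genes were lower there in 5 of 6, with a median log2 ratio of -0.76, and their part was not tested. In macrophage-like cells Sqle was at 0.663 (0.537 to 0.815), 1 of 8 where 4.51% were lower and 2.79% higher, and it passed the fold in 5 of 15 other settings. Hspa1b was at 3.51 (2.76 to 4.49) in the same cells, 1 of 6 heat shock genes higher, and its part was not tested. Of the macrophage-like cells, the cluster led by Mmp12 and Fabp4 held 150 of 332 in PBS, 407 of 698 in G-HD and 191 of 442 in MPG-HD. The part of this make-up in the macrophage-like ratios was not tested. In microglia-like cells 0 of 6 members passed, where 4.95% were lower and 2.34% higher.

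The list of 13 other cholesterol synthesis enzymes was read in the same way. In oligodendrocyte-like cells 10 had enough UMIs. Mvd was lower in MPG-HD over PBS, at 18.7, 20.9 and 11.0 CPM, a ratio of 0.585 (0.392 to 0.877), and was 1 of 2 among the 10 lower, where 4.64% of all genes were. The median log2 ratio of the 10 was -0.44 in MPG-HD over PBS, -0.47 in MPG-HD over G-HD and 0.05 in G-HD over PBS. In macrophage-like cells Nsdhl, a sterol demethylation enzyme, was higher in both hydrogels, at 2.82, 4.83 and 6.03 CPM, on 15, 59 and 43 UMIs. The ratio to PBS was 1.72 (0.962 to 3.26) in G-HD, an interval that spans 1, and 2.14 (1.17 to 4.15) in MPG-HD. Sc5d was higher in G-HD at 1.96 (1.09 to 3.80), which makes 2 of 7 enzymes measured higher there, where 5.47% of all genes were; in MPG-HD 1 of 6 was, where 2.86% were. Sc5d went the other way in fibroblast-like cells, at 0.639 (0.418 to 0.976) in G-HD and 0.615 (0.390 to 0.962) in MPG-HD over PBS, and in precursor-like cells, at 0.481 and 0.463. In Schwann-like cells it was at 0.627 (0.378 to 1.05) in MPG-HD over PBS.

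Of the genes that sense sterol, Srebf2, which encodes the SREBP that drives these enzymes, was at 36.3, 43.2 and 56.8 CPM in oligodendrocyte-like cells, a ratio of 1.56 (1.24 to 1.99) in MPG-HD over PBS, 1 of 4 genes of its list with enough UMIs, where 3.26% of all genes were higher. In precursor-like cells the same comparison gave 0.509 (0.286 to 0.896), lower, on 24 and 31 UMIs, where 7.79% of all genes were lower. In microglia-like cells Srebf2 was at 1.56 (1.07 to 2.33) in MPG-HD over G-HD, 1 of 5 measured, where 2.34% were higher. Srebf1, whose SREBP favours fatty acid synthesis, was lower in G-HD over PBS at 0.526 (0.342 to 0.792) in oligodendrocyte-like cells, 1 of 3 measured, where 3.34% were lower.

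Across the 18 class sums (6 classes in 3 libraries), the profile of each gene was set against the mean of the 8 on a log2(CPM + 10) scale. Cyp51 followed the other members most closely, with a Pearson r of 0.99, and Insig1 least, with 0.84. Among 11371 other genes the 8 with the highest r were Dynlrb1, Rab6a, Cdk17, Dctn1, Ptgr2, Sirt3, Pcbp4 and Soga3, at 0.97 to 0.98. None of them is on the cholesterol lists, and by rank correlation 0 of the 8 remained among the highest 8. Pmvk ranked 11th, the fatty acid synthase gene Fasn 57th and Sc5d 63rd, while Insig2, the paralog of Insig1, had an r of -0.66. The 18 sums share libraries and the differences between 6 classes, so these values describe the profiles only.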

How the data were processed

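Single-cell RNA was measured with a droplet kit that counts the 3' ends of transcripts, in 1 library per treatment. The authors deposited raw UMI counts per gene and barcode. Cell Ranger is given as version 3.0.2 per the submitters' processing notes, and the matrix header carries 3.1.0. The notes name mouse builds, while every feature carries a rat Ensembl identifier; the rat build is not given in the sources used here. From the counts, a barcode was kept if it had 200 or more genes detected and no more than 20% of its UMIs from mitochondrial genes. Scrublet (in Scanpy 1.11.5) called 12 of 5815 cells, 0.206%, so it was taken not to have worked as a doublet caller, and those cells were removed. Clustering used 2000 variable genes, 30 principal components, 20 nearest neighbours and Leiden resolution 0.8 (leidenalg 0.10.2), over all libraries together with no batch term, because library and treatment are the same. A cluster was named from at least 3 fixed markers found in 20% of its cells. UMIs were summed per class and library. Levels have exact Poisson intervals, ratios exact conditional (Clopper-Pearson) ones and shares exact Clopper-Pearson ones (SciPy 1.17.1). The interval code was tested on Poisson counts simulated from class sums, which hold no uneven spread over cells. The text names all 8 members in every class, the 8 genes with the highest Pearson r to their mean profile, other cholesterol synthesis enzymes and Srebf2, and at most 3 genes of each other list with the most UMIs; Srebf1, Insig2, Fasn, Hspa1b, Dnajb1 and Hspb1 were singled out after their values were seen. The members and lists were chosen with earlier results of these data known. Some genes that this rule covers are not reported here.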

Additional observations from a re-analysis of the deposited data

Results flagged for a closer look

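In G-HD over PBS, Idi1 passed the fold upward in oligodendrocyte-like cells, with a ratio of 1.66, and downward in precursor-like cells, at 0.404, and in microglia-like cells, at 0.632. It is listed because the same contrast gave a ratio above 1 in the first class and below 1 in the other 2. The difference between the classes was not tested, since each class has 1 library per group. The precursor-like value is the least stable: its log2 ratio ran from -1.51 to 0.56 over 14 other settings, and 1 PBS cell holds 41 of the 83 Idi1 UMIs of that class.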

How the results depend on the processing

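No paired analysis was possible because each group is 1 library. Log2 ratios of single members lay within the main counting interval in 1839 of 2034 values over the alternatives and outside it in 167. Another 28 changed sign after a main value counted as higher or lower, and are called reversed. A change of sign from any other main value was not called reversed and is among the 1839 or the 167. By the same rule, with the median of the members' interval limits, 252 of 270 median log2 ratios stayed, 16 moved and 2 reversed. Of 288 thinned shares with another depth or none, 211 moved. Leaving out the cell with the most member UMIs was chosen after seeing the data. The cause of each change was not tested.

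The count of members higher in G-HD over PBS, 2, became 5 without the top 6% of doublet scores, 4 at resolution 0.4, 5 with every cell at the same weight, 6 without the cell with the most UMIs of the gene, 5 without the cell with the most member UMIs, 1 after thinning, 1 with a 100 UMI minimum and 0 at 2-fold. The count lower, 5, became 3 with the stricter cell filter, 3 without the doublet scores, 3 at resolution 0.4, 2 with 1000 variable genes, 2 without either top cell, 0 after thinning and 2 at 2-fold. In MPG-HD over PBS the count higher, 0, became 1 with no cell filter, the stricter filter, without the doublet scores, at resolution 0.4, with 1000 variable genes and with pathway genes left out of the clustering, and 2 with a 20 UMI minimum. The count lower, 9, became 5 with the stricter filter, 4 at resolution 0.4, 3 with 1000 variable genes, 5 without the top member cell, 2 after thinning and 5 with a 100 UMI minimum. In MPG-HD over G-HD the count lower, 8, became 17 without the doublet scores, 14 with every cell at the same weight, 4 with a 100 UMI minimum and 2 at 2-fold.

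In precursor-like cells the G-HD over PBS median, -0.48, became 0.51 (stricter filter), 0.91 (doublet scores), 0.58 (resolution 0.4), 0.25 (1000 variable genes), 0.08 (equal cells), 0.10 (top cell of the gene) and 0.14 (top member cell). The MPG-HD over PBS median, -1.05, became 0.18, 0.03, -0.06, -0.39 (equal cells), -0.47 (top cell of the gene) and -0.31 (top member cell), the first 3 in the order above. After thinning, macrophage-like medians were -0.42 in G-HD and -0.80 in MPG-HD over PBS, the fibroblast-like MPG-HD over PBS median was 0.26 and the microglia-like MPG-HD over G-HD median -0.94. Medians cover only members that met the UMI minimum, which the smaller thinned sums kept. These thinned medians can therefore rest on very few members and are not like for like with the main medians. Before thinning, Fdps held the most UMIs of the members in these classes. The Schwann-like MPG-HD over G-HD median was -0.76 without the doublet scores.

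In the precursor-like G-HD over PBS comparison the log2 ratio of Hmgcs1 reversed to 2.31 (doublet scores), 2.16 (resolution 0.4), 1.83 (1000 variable genes), 0.06 (equal cells), 0.94 (either top cell) and 0.02 (thinning). Idi1 reversed to 0.56 (stricter filter), 0.37 (doublet scores) and 0.22 (resolution 0.4), and Cyp51 to 0.40, 0.91 and 0.44 in that order, 2.05 (1000 variable genes) and 0.15 (thinning). In MPG-HD over PBS Hmgcs1 reversed to 0.01 (doublet scores), Sqle to 0.46 (stricter filter), 0.05 (doublet scores), 0.15 (resolution 0.4) and 0.22 (1000 variable genes), Fdps to 0.18, 0.01 and 0.03 in the first 3 of these, and Cyp51 to 0.14 (stricter filter), 0.41 (doublet scores) and 0.73 (1000 variable genes). After thinning, Fdft1 in Schwann-like G-HD over PBS was -0.36 and Sqle in macrophage-like MPG-HD over G-HD was 0.04. Low UMI counts limit precursor-like cells, where members had 17 to 127 UMIs per library.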
